A study of Mus musculus with 4 samples.

Results

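Genes of pulmonary neuroendocrine cells were examined in embryonic lung at E18.5 with and without *Hmga2*. The 9 genes chosen were *Calca*, *Grp*, *Chga*, *Chgb*, *Scg2*, *Scg3*, *Ddc*, *Syp* and *Insm1*. They were chosen with earlier results of these data known, and were found on the array by their symbols. A probe set, which is the array's group of probes for a transcript, was used if the platform annotation gave it exactly 1 symbol, and 8 of the 9 genes had such a probe set, out of 19938 genes on the array. *Calca* was not analysed here. RNA of whole lung was hybridized to Affymetrix arrays, 1 array per sample, with 2 *Hmga2*−/− (KO) and 2 *Hmga2*+/+ (WT) samples, all C57BL/6 embryos at embryonic day 18.5 and without treatment. The knockout was carried by the whole embryo, from a line bred from *Hmga2*+/− mice, and was not restricted to the lung. The sources used here do not give how many embryos went into a sample. The WT samples share a group name in their titles, so that their independence rests on the label biological replicate. The values are log2 RMA values, a scale on which a difference of 1 is a 2-fold change.

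Pulmonary neuroendocrine cells are rare cells of the airway epithelium that sit alone or in innervated clusters called neuroepithelial bodies. They are the first cell type to differentiate in the airway epithelium, sense the airway content, and store peptides and amines in dense core granules. *Calca* encodes calcitonin gene-related peptide and *Grp* gastrin-releasing peptide, granins such as those of *Chga* and *Scg2* build the granules, and *Insm1* is a transcription factor required for their endocrine differentiation in the mouse. Because most of these genes are also active in neurons, a lung sample can hold their transcripts from airway nerves and ganglia too.

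The arrays differed in ways that bear on all results. Across all probe sets, Pearson's r was 0.997 between the KO arrays and 0.985 between the WT arrays. WT replicate 1 stood apart, with r = 0.976 to each KO array, against 0.994 and 0.992 for WT replicate 2. Array medians lay at 8.02 and 7.91 in KO replicates 1 and 2 and at 7.99 and 8.02 in WT replicates 1 and 2. The *Hmga2* probe set read 9.65 and 9.39 in the KO arrays and 9.35 and 9.59 in the WT arrays (log2 difference 0.051, adjusted p = 0.892 from limma), and since it is not known here whether the deletion removed its target, directions hold for the arrays as labelled. All 14 measured genes of a cell cycle list had higher means in the KO arrays, as had 8205 of all 19938 genes (median log2 difference 0.96, and 0.61 without WT replicate 1). With all arrays, limma called 0 of the 14 (adjusted p from 0.0511 to 0.265).

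None of the 8 neuroendocrine cell genes changed between KO and WT lung in limma's test over all genes (adjusted p from 0.529 to 0.951), where 0.782% of all genes tested were called, 0.0802% as higher and 0.702% as lower in KO. At an unadjusted p under 0.05 the count was also 0 of 8, against 14.5% of all genes. Higher means were seen for 3 genes and lower means for 5, as for 8205 and 11733 of all genes, and the median log2 difference was −0.042, close to the −0.051 of all genes, but with cyclic loess between arrays 6 were higher and 2 lower, with medians of 0.084 for the 8 genes and −0.0022 for all genes. The differences ran from −0.30 for *Grp* to 0.14 for *Insm1*, with standard errors from 0.124 to 0.211. Only *Grp* was past 1.2-fold, 1 of 8 genes and as a lower value, against 30.5% of all genes in either direction, 13.4% higher and 17.1% lower. With 2 arrays against 2 the 95% intervals of KO over WT were wide and differed between genes, from 0.571-fold to 1.16-fold for *Grp*, from 0.779-fold to 1.18-fold for *Syp* and from 0.882-fold to 1.37-fold for *Insm1*. In bulk tissue, fewer cells of a type and less RNA per cell cannot be told apart.

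**Figure D1:**
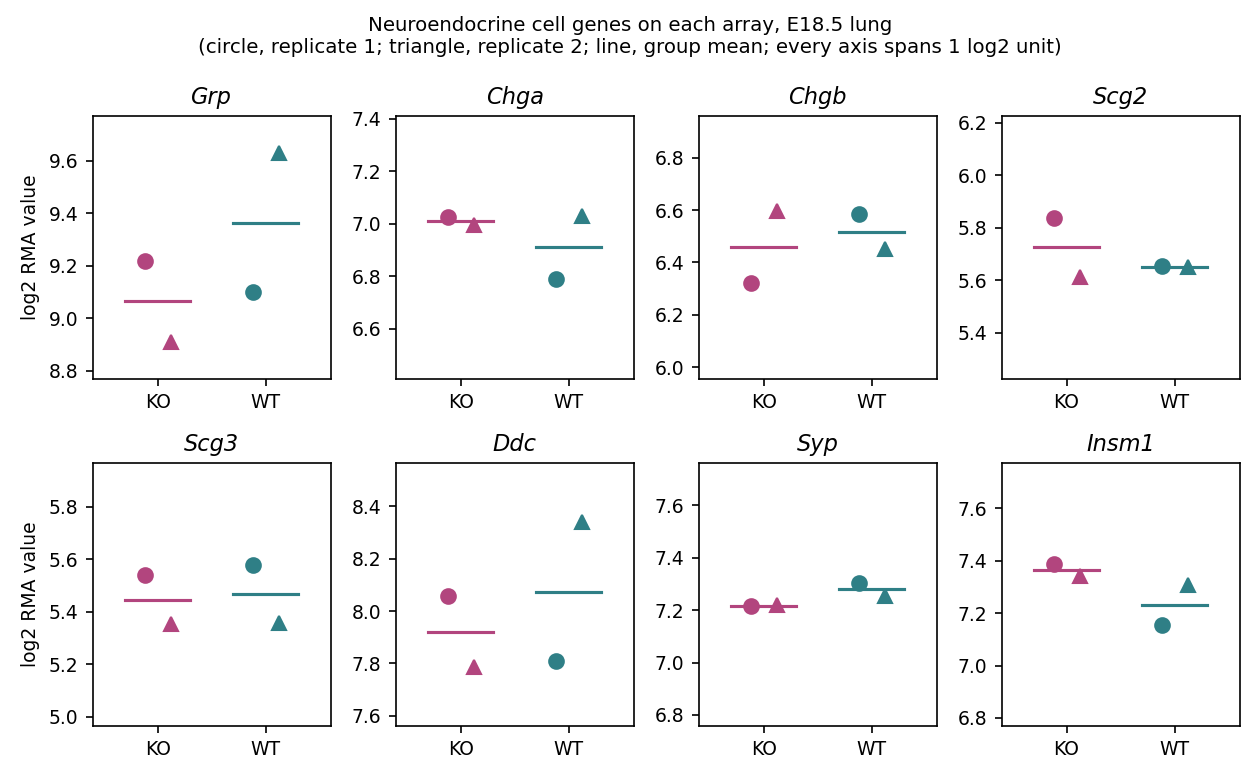
Each panel shows the log2 RMA value of 1 gene on the 2 KO arrays and the 2 WT arrays, with replicate 1 as a circle, replicate 2 as a triangle and the group mean as a line, on axes that all span 1 log2 unit. *Grp* and *Ddc* are highest in WT replicate 2, and only in *Syp* and *Insm1* do the groups not overlap.

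Among the secreted peptides, *Grp* had the largest difference of the 8 genes. Its peptide, the mammalian counterpart of bombesin, is best known from neuroendocrine cells of human lung. *Grp* read 9.22 and 8.91 in the KO arrays and 9.10 and 9.63 in the WT arrays. WT replicate 2 lay above the other arrays and WT replicate 1 lay between the KO arrays, so the groups overlapped. The log2 difference was −0.30 (standard error 0.21, adjusted p = 0.529 from limma, 95% interval from −0.81 to 0.21). This value moved with the array left out, and most with the WT arrays. It was −0.56 and −0.035 without WT replicate 1 and 2, and −0.45 and −0.145 without KO replicate 1 and 2. In the first of these settings limma called *Grp* (adjusted p = 0.00548), with a lone WT array that is assumed to vary like the KO arrays, and that setting called 8.22% of all genes.

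The granins *Chga*, *Chgb*, *Scg2* and *Scg3* encode acidic proteins that are packed into dense core granules. The sequences before a start site of each are shown because all 4 hold a close match to TGACGTCA, the palindromic cAMP response element to which CREB family factors bind. They are from RefSeq, build GRCm38.p6, in 5′ to 3′ direction of the gene, and the capitals mark the 8 bases that match the element best.
Chga: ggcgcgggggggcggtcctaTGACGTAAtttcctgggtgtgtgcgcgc
Chgb: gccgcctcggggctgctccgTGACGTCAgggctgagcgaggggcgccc
Scg2: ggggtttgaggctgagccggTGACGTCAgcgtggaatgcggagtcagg
Scg3: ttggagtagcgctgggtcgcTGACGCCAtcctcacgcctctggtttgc
The stretches lie at chr12:102554877-102554924 on the plus strand, chr2:132781550-132781597 on the plus strand, chr1:79440067-79440114 on the minus strand and chr9:75684059-75684106 on the minus strand, and the capitals begin 44, 72, 68 and 30 bases before the start site of the window in that table, in the same order of genes. *Chgb* and *Scg2* matched all 8 bases, as did 1.79% of 32851 promoter windows of 300 bases, and *Chga* and *Scg3* matched 7, where 12.5% of all windows held a match of 7 or more. The window of *Scg3* is at a start site that is not the start of the gene in the RefSeq gene table, unlike those of the other 3 granins. The element reads the same on both strands. It was searched after the sequences had been read, and a match describes letters, not binding. The window of *Calca* also had a match of 7, at another place in the element, while the best matches were 6 and 5 bases in the windows at the start sites listed for *Ddc* and 5 in that of *Syp*.

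Between KO and WT lung, 2 of the granins had a higher and 2 a lower mean, each with overlapping groups. *Chga*, the gene of chromogranin A, read 7.024 and 6.996 in the KO arrays and 6.789 and 7.030 in the WT arrays. The KO arrays lay within the range of the WT arrays, and WT replicate 1 was the lowest (difference 0.10, standard error 0.14, adjusted p = 0.746 from limma). *Chgb*, the gene of chromogranin B, read 6.32 and 6.59 in the KO arrays and 6.58 and 6.45 in the WT arrays. Here the KO arrays held both the highest and the lowest value (difference −0.060, standard error 0.15, adjusted p = 0.865). *Scg2*, whose product secretogranin II is cut into secretoneurin, read 5.84 and 5.61 in the KO arrays and 5.65 and 5.65 in the WT arrays. The WT arrays were nearly equal and lay between the KO arrays (difference 0.073, standard error 0.14, adjusted p = 0.817). *Scg3*, whose product helps to sort chromogranin A into granules, read 5.54 and 5.35 in the KO arrays and 5.58 and 5.36 in the WT arrays. In both groups replicate 1 was higher than replicate 2, and the group means almost coincided (difference −0.024, standard error 0.15, adjusted p = 0.951). The direction of *Chgb* and *Scg3* turned positive with cyclic loess (0.051 and 0.12).

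The signals of 3 granins were dim. Olfactory and vomeronasal receptor genes, which have no known general role in lung, gave 1194 probe sets whose means had a median of 4.86 and a 95th percentile of 6.54. The means of *Chgb* (6.49), *Scg2* (5.69) and *Scg3* (5.46) lay below that percentile, as did those of 4979 of all 19938 genes. A probe set below that percentile is called dim here. The other 5 genes lay above it, with *Chga* at 6.96, *Syp* at 7.25, *Insm1* at 7.30, *Ddc* at 7.998 and *Grp* at 9.22. These positions describe probe sets and do not rank the transcripts.

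*Ddc* encodes aromatic L-amino acid decarboxylase, which makes serotonin and dopamine from their precursors. It read 8.06 and 7.79 in the KO arrays and 7.81 and 8.34 in the WT arrays. WT replicate 2 was the highest and KO replicate 2 the lowest, the same order of arrays as for *Grp* (WT replicate 2, KO replicate 1, WT replicate 1, KO replicate 2). The difference was −0.15 (standard error 0.21, adjusted p = 0.739 from limma, 95% interval from −0.65 to 0.35). Leaving out WT replicate 1 gave −0.42 and leaving out WT replicate 2 gave 0.11. Without KO replicate 1 and 2 it was −0.29 and −0.018. No other pair of the 8 genes shared an order of arrays.

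*Syp* and *Insm1* were the genes whose groups did not overlap, 2 of 8 against 49.4% of all genes. *Syp*, 1 of 8, was lower in KO, as were 31.8% of all genes, and *Insm1*, 1 of 8, was higher, as were 17.6%. *Syp*, the gene of synaptophysin, a membrane protein of small vesicles, read 7.22 and 7.22 in the KO arrays and 7.30 and 7.25 in the WT arrays. All 4 values fell within a narrow band with both KO arrays below both WT arrays, and the difference was −0.061 (standard error 0.12, adjusted p = 0.830 from limma, 95% interval from −0.36 to 0.24). It was the only gene of the 8 whose difference was larger than the gap between replicates in both groups, and it turned to 0.0060 with cyclic loess. *Insm1*, a zinc finger transcription factor, read 7.39 and 7.34 in the KO arrays and 7.15 and 7.31 in the WT arrays. Both KO arrays lay above both WT arrays, by less than the WT arrays lay apart (difference 0.14, standard error 0.13, adjusted p = 0.637, 95% interval from −0.18 to 0.45). It kept its sign when any 1 array was left out (0.059 to 0.21).

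**Figure D2:**
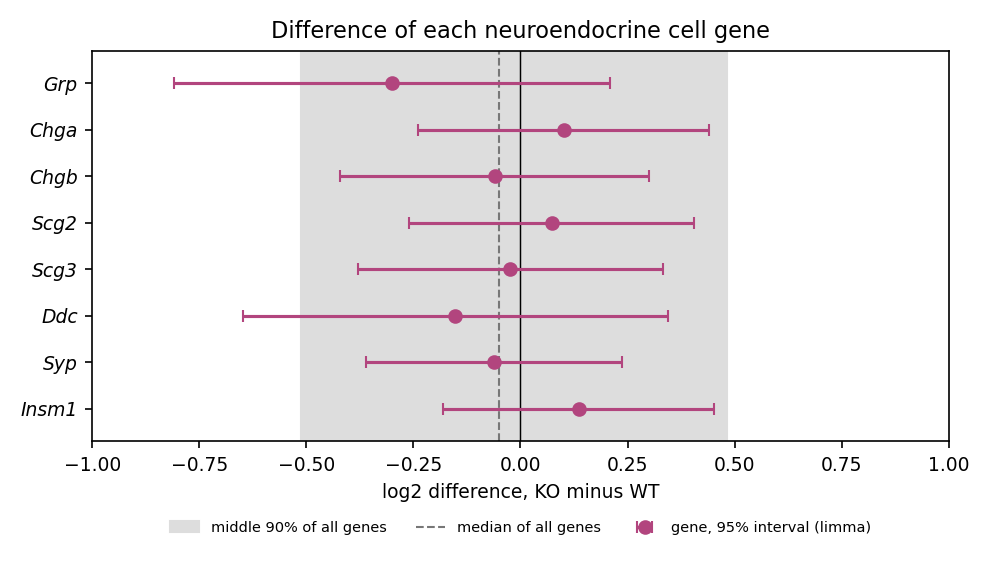
Points give the log2 difference KO minus WT of each gene and bars its 95% interval from limma, over a band that holds the middle 90% of all genes and a dashed line at their median. All 8 points lie inside the band and all 8 intervals include 0, from −0.81 to 0.21 for *Grp* and from −0.18 to 0.45 for *Insm1*.

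How far single arrays carried these differences was read from fits with 1 array left out. *Grp*, *Syp* and *Insm1* kept their sign in all 4 fits, *Chga*, *Scg2* and *Ddc* in 3 of 4, and *Chgb* and *Scg3* in 2 of 4. KO replicate 2, the array with the lowest median, was the lowest array for 4 of the 8 genes. WT replicate 2 was the highest for 3 genes and the lowest for none. Over all 19938 genes limma called 1 gene without KO replicate 1, 0 without KO replicate 2 (968 at an unadjusted p under 0.05), 8.22% without WT replicate 1 and 31.6% without WT replicate 2, so that calls gained or lost in these settings are shared with many genes. Replicates differed by 0.0022 to 0.309 in the KO arrays and by 0.0011 to 0.530 in the WT arrays. Leaving out KO replicate 1 or 2 gave a median of the 8 genes of −0.049 or 0.026, and leaving out WT replicate 1 or 2 gave −0.0069 or 0.019.

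**Figure D3:**
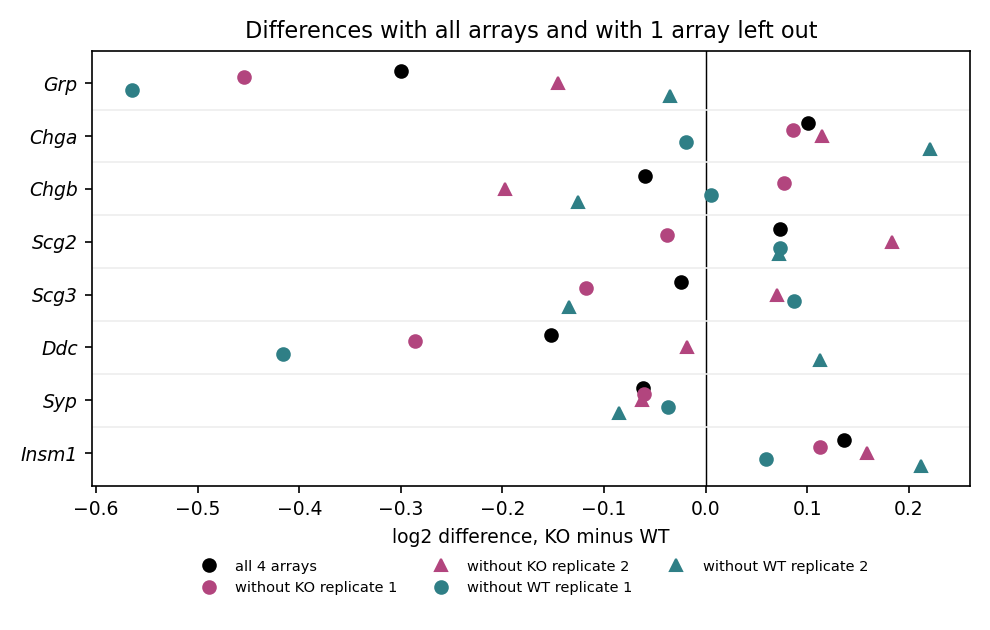
Points give the log2 difference KO minus WT of each gene with all 4 arrays (black), without a KO array (purple) and without a WT array (blue-green), circles for replicate 1 and triangles for replicate 2. *Grp* spreads from −0.56 to −0.035 and *Ddc* from −0.42 to 0.11, while *Syp* stays between −0.085 and −0.037.

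Other markers of neuroendocrine cells went in both directions. Of 12 listed, 11 were measured, and the KO mean was higher for 4 and lower for 7 (median log2 difference −0.041). Limma's test over all genes called 0, and an unadjusted p under 0.05 was reached by 1 that was higher and 2 that were lower. Of all genes, 14.5% reached it in either direction. The median was 0.10 with cyclic loess, −0.12 without KO replicate 1 and 0.047 without KO replicate 2. *Uchl1*, a ubiquitin hydrolase known as PGP9.5 that marks both neuroendocrine cells and neurons, read 9.41 and 9.05 in the KO arrays and 7.29 and 8.19 in the WT arrays. Both KO arrays were higher and WT replicate 1 was the lowest (log2 difference 1.49, standard error 0.30, adjusted p = 0.0938 from limma). Without WT replicate 1 the difference was 1.04 and without WT replicate 2 it was 1.94, and limma called *Uchl1* in both of these settings, as it did 8.22% and 31.6% of all genes (adjusted p = 2.67e-09 and 2.38e-33), in each of which the lone WT array adds no spread of its own, and also without the dimmest 40 percent of genes (adjusted p = 0.0389). *Bex2*, a small protein first found in brain, read 6.74 and 6.57 in the KO arrays and 7.47 and 7.43 in the WT arrays (difference −0.79, standard error 0.13, adjusted p = 0.0659). Both WT arrays lay above both KO arrays. Limma called it without WT replicate 1 or WT replicate 2 (adjusted p = 2.64e-05 and 2.54e-06), with cyclic loess (adjusted p = 0.0432) and with trend and robust in eBayes (adjusted p = 0.0404). *Piezo2*, a mechanosensitive channel, had a difference of −0.48 (adjusted p = 0.196), and *Ncam1*, a cell adhesion molecule of neuroendocrine cells and neurons, of 0.35 (adjusted p = 0.391), and both were called without WT replicate 2, as were 31.6% of all genes (adjusted p = 0.00157 and 0.00510). In that setting 4 of the 11 markers were called. The early endocrine factor *Neurod1* and the peptide-cell marker *Resp18* had dim probe sets, below the 95th percentile of the receptor genes. In all, 4 of the 11 had dim probe sets, against 4979 of all 19938 genes.

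Genes that process and store granule content differed little. Of 12 measured genes, the KO mean was higher for 5 and lower for 7 (median −0.027, range −0.26 to 0.19, and a median of 0.014 without KO replicate 2 and 0.035 with cyclic loess), 0 passed, and 0 had an unadjusted p under 0.05. The vesicular monoamine transporter gene *Slc18a1* read 7.50 and 7.32 in the KO arrays and 7.53 and 7.82 in the WT arrays (difference −0.26, adjusted p = 0.469 from limma). The prohormone convertase gene *Pcsk1* had a difference of 0.19 (adjusted p = 0.523), the granin-like *Vgf* of −0.19 (adjusted p = 0.508) and the granule membrane gene *Ptprn2* of −0.21 (adjusted p = 0.480). In a list of amine and GABA synthesis, uptake and breakdown, 8 of 14 genes had a higher and 6 a lower mean (median 0.018), and 0 passed. *Gch1* alone had an unadjusted p under 0.05 from limma, 1 of 14 against 14.5% of all genes. The direction of the list turned on the WT arrays. There were 3 of 14 higher (median −0.11) without WT replicate 1, and 8 of 14 higher (median 0.16) without WT replicate 2. *Gch1*, which starts the synthesis of the tetrahydrobiopterin that amine-forming hydroxylases need, read 6.47 and 6.28 in the KO arrays and 6.67 and 6.92 in the WT arrays (difference −0.43, adjusted p = 0.285, and 0.00708 without WT replicate 1). *Tph1*, the enzyme of serotonin synthesis outside the brain, read 5.98 and 5.95 in the KO arrays and 6.23 and 6.22 in the WT arrays, on a dim probe set (difference −0.26, adjusted p = 0.398).

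Genes of vesicle release had a small median difference toward the KO arrays, with 11 of 18 measured genes higher and 7 lower (median 0.068). Of these, 0 passed and 2 were higher at an unadjusted p under 0.05 from limma, against 1173 of all 19938 genes. Among the 8 genes of this list left without the dimmest 40 percent of genes, the median was −0.070. *Snap25*, a SNARE protein of regulated exocytosis, read 7.88 and 7.69 in the KO arrays and 7.24 and 7.42 in the WT arrays (difference 0.46, adjusted p = 0.227 from limma). *Sv2b*, a glycoprotein of synaptic vesicles, read 6.79 and 6.84 in the KO arrays and 6.36 and 6.35 in the WT arrays (difference 0.46, adjusted p = 0.177). Both genes had both KO arrays above both WT arrays, as had 17.6% of all genes. In the list, groups did not overlap for 5 genes with KO higher and 3 with KO lower, where 31.8% of all genes were lower without overlap. Limma called *Sv2b* without WT replicate 1 (adjusted p = 0.0373) and both without WT replicate 2 (adjusted p = 0.0151 for *Sv2b* and 0.00238 for *Snap25*), settings that called 1 and 3 of the 18 genes against 8.22% and 31.6% of all genes.

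Markers of neurons, a cell type that shares granins and synaptophysin with neuroendocrine cells, had mostly higher means in the KO arrays. Of 16 measured, 12 were higher and 4 lower (median 0.20), against 8205 and 11733 of all 19938 genes. Limma's test over all genes called 0, and 4 higher had an unadjusted p under 0.05, against 1173 of all genes. The list's value per array, as the median of each gene's value minus its mean over the arrays, was 0.18 and 0.027 in the KO arrays and −0.17 and −0.054 in the WT arrays, while that of the 8 neuroendocrine cell genes was 0.061 and −0.052 in the KO arrays and −0.076 and 0.0077 in the WT arrays. On these values the neuron list had both KO arrays above both WT arrays and the neuroendocrine cell genes did not. The values are not corrected for shifts of whole arrays. Over all genes they were 0.023 and −0.063 in the KO arrays and 0.0030 and 0.043 in the WT arrays. General lung epithelial genes had the same order of groups as the neuron list (0.147 and 0.032 in KO, −0.27 and 0.029 in WT). Whether the 2 lists differ was not tested. The median of the neuron list was 0.12 without WT replicate 1, and −0.020 among the 3 genes left without the dimmest 40 percent. The 4 lower genes were *Phox2a* (−0.077), *Chrnb4* (−0.063), *Stmn2* (−0.063) and *Gap43* (−0.020), with adjusted p from 0.814 to 0.963 from limma. *Stmn2* and *Gap43* had the highest means of the list. Among the higher genes, *Dcx* had a difference of 0.50 and *Prph* of 0.33 (adjusted p = 0.299 and 0.324 from limma). *Chrna3*, a nicotinic receptor subunit of autonomic ganglia, had a difference of 0.63 (adjusted p = 0.0912 from limma) on a dim probe set, and limma called it with cyclic loess (adjusted p = 0.0392) and without WT replicate 1 or WT replicate 2 (adjusted p = 0.00141 and 0.000293). The neurofilament gene *Nefl* had 0.52 (adjusted p = 0.225, and 0.000835 without WT replicate 2). Without WT replicate 2, 5 of the 16 were called, against 31.6% of all genes. Of 6 measured Schwann cell markers, 4 were higher and 2 lower (median 0.024, and −0.024 without WT replicate 1), with *Fabp7*, also a marker of radial glia, at 9.91 and 9.63 in the KO arrays and 7.82 and 8.92 in the WT arrays (difference 1.40, adjusted p = 0.145, and 2.50e-06 and 5.18e-34 without WT replicate 1 and 2), and the defining marker *Sox10* at −0.028 (adjusted p = 0.932). Of 7 measured thyroid markers, 1 was higher and 6 lower (median −0.067, 0.036 with cyclic loess), and 0 passed. The part of nerve or gland tissue in the values of the 8 genes was not tested.

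**Figure D4:**
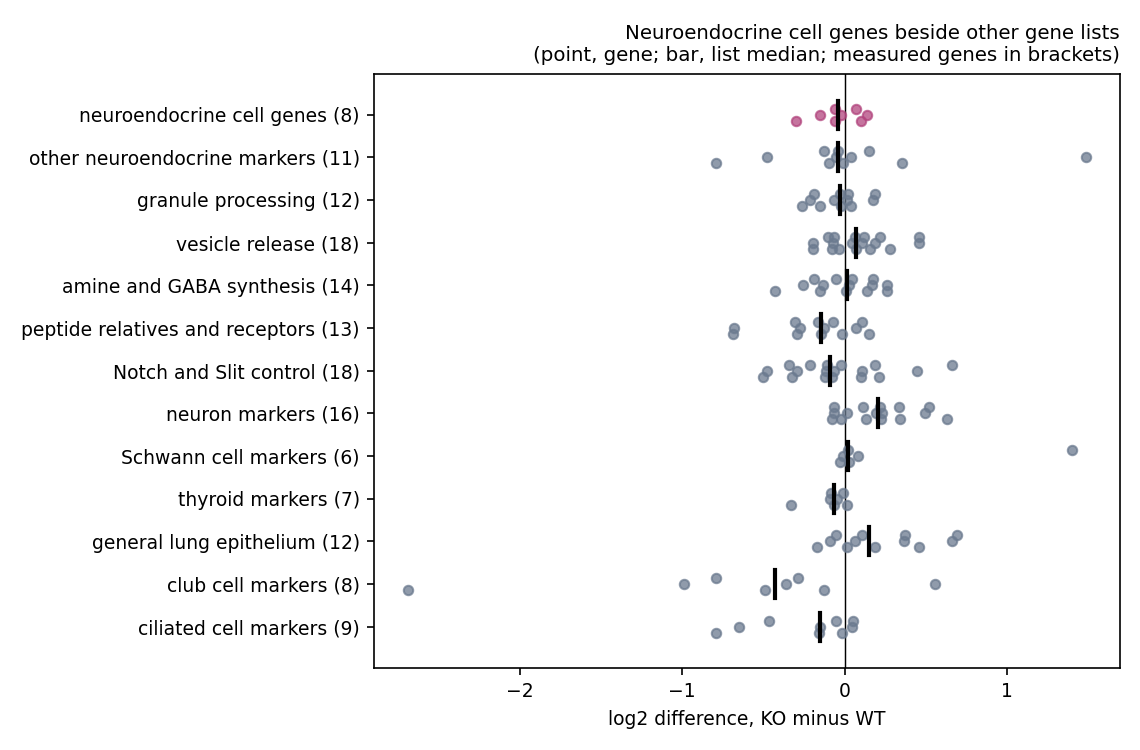
Each point is the log2 difference KO minus WT of a measured gene, each row a gene list and each bar the list's median. The 8 neuroendocrine cell genes lie between −0.30 and 0.14 around a median of −0.042, neuron markers have a median of 0.20 and club cell markers of −0.43.

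Relatives and receptors of the peptides had lower means in the KO arrays for 10 of 13 measured and higher means for 3, where 11733 of 19938 genes were lower. The median was −0.14 (−0.051 for all genes, and −0.082 against −0.0022 with cyclic loess), and 0 passed. At an unadjusted p under 0.05 from limma 3 were lower, against 1710 of all 19938 genes. *Calcrl*, the receptor of both calcitonin gene-related peptide and adrenomedullin and abundant in endothelium, read 11.9 and 11.8 in the KO arrays and 12.6 and 12.4 in the WT arrays (difference −0.69, standard error 0.14, adjusted p = 0.0924 from limma). *Adm*, the gene of adrenomedullin, read 7.55 and 7.63 in the KO arrays and 8.10 and 8.44 in the WT arrays (difference −0.68, standard error 0.16, adjusted p = 0.130). Limma called both without WT replicate 1 (adjusted p = 0.00317 for *Calcrl* and 2.41e-06 for *Adm*) and without WT replicate 2 (adjusted p = 4.87e-06 and 0.00511), where 2 and 3 of the 13 genes were called, against 8.22% and 31.6% of all genes. *Ramp1*, the partner that makes *Calcrl* a receptor of calcitonin gene-related peptide, had a difference of −0.28 (adjusted p = 0.395). *Grpr*, the receptor of gastrin-releasing peptide, had 0.15 (adjusted p = 0.613), and *Calcb*, the gene of the second form of calcitonin gene-related peptide, had 0.069 (adjusted p = 0.819) on a dim probe set.

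Notch and Slit genes, which in the mouse lung restrict the number of neuroendocrine cells and arrange them in clusters, went both ways. The RNA was of whole lung, so the values do not tell which cells they came from. Their bearing on neuroendocrine cells was not tested. Of 18 measured, the KO mean was higher for 6 and lower for 12 (median −0.093), and 0 passed. An unadjusted p under 0.05 from limma was reached by 1 of the higher and 4 of the lower genes, against 1173 higher and 1710 lower of all 19938 genes. *Dll4*, a Notch ligand, had a difference of −0.48 (adjusted p = 0.204 from limma), *Hey1*, a Notch target, −0.34 (adjusted p = 0.297), *Heyl*, another target, 0.66 (adjusted p = 0.245) and *Slit2*, a secreted guidance ligand, −0.50 (adjusted p = 0.252). Without WT replicate 2 limma called *Dll4*, *Heyl* and *Slit2* (adjusted p = 0.00866, 7.89e-09 and 6.82e-05), and without WT replicate 1 *Dll4* (adjusted p = 0.0302). These are settings with 5 and 1 of the 18 genes called, against 31.6% and 8.22% of all genes. *Hes1*, the repressor that holds back neuroendocrine differentiation in the mouse, read 10.1 and 9.89 in the KO arrays and 9.70 and 10.0 in the WT arrays (difference 0.10, adjusted p = 0.785), and *Robo2*, a Slit receptor, had 0.11 (adjusted p = 0.706).

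In the epithelium around the neuroendocrine cells, general lung epithelial genes had 9 higher and 3 lower means among 12 (median 0.15, and 0.042 without WT replicate 1), and 0 passed with all arrays. Among 8 club cell markers, 1 was higher and 7 lower (median −0.43), and *Scgb1a1*, the secretoglobin that defines club cells, fell by 2.69 on the log2 scale (adjusted p = 0.00283 from limma), as did *Cbr2*, a carbonyl reductase, by 0.99 (adjusted p = 0.0399). Without KO replicate 1 or KO replicate 2 the differences were about as large (−2.77 and −2.60 for *Scgb1a1*, −1.07 and −0.91 for *Cbr2*), and limma called neither (adjusted p = 0.177 and 0.248 for *Scgb1a1*, 0.530 and 0.936 for *Cbr2*), in settings that called 1 and 0 of all genes. For *Scgb1a1* the paper reports no significant change between these genotypes in its own PCR measurement at the same stage. The array value thus differs from that result, and the reason was not tested. Among 9 ciliated cell markers, 2 were higher and 7 lower (median −0.15), and 0 passed. Without KO replicate 2 there were 5 of 9 higher (median 0.00094), and without WT replicate 2 there were 4 of 9 (median −0.013). Whether the difference of the neuroendocrine cell genes is unlike that of the club cell markers was not tested.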

How the data were processed

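Total RNA of E18.5 lung was hybridized to Affymetrix arrays, 1 per sample. The authors deposited log2 values for 30177 probe sets, computed by RMA (background correction, quantile normalization and probe summary) in Affymetrix Expression Console per the submitters' processing notes. No version of Expression Console or RMA was given in the sources used here. No detection call comes with the values, and precision is limited by the number of arrays. The platform annotation gave 1 symbol for 21789 probe sets, several for 1621 and none for 6767. For each of 19938 genes, the probe set with the highest mean across the arrays was kept. Each of the 8 measured neuroendocrine cell genes had 1.

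KO minus WT was tested by lmFit and eBayes of limma 3.58.1 under R 4.3.3 (2 residual and 4.42 prior degrees of freedom), with Benjamini-Hochberg adjustment over all genes at 0.05. P values measure the spread between these arrays only. An exact permutation test of 2 against 2 arrays cannot go below p = 0.333. The genes, lists and tests were chosen with earlier results of these data known, and lists are described by counts and medians without a test. Named genes are the 8, *Hmga2*, up to 4 genes of each list with the smallest p and any that passed. *Robo2*, *Hes1*, *Neurod1*, *Resp18*, *Grpr*, *Calcb*, *Phox2a*, *Chrnb4*, *Stmn2* and *Gap43* lie outside this rule and were picked after seeing values. Alternatives were the replicate block, median centring, cyclic loess, a filter that drops the dimmest 40 percent, averaging a gene's probe sets, eBayes with trend and robust, no eBayes (the form closest to the analysis of variance in the study's methods), treat against 1.2-fold, a threshold of 0.10 and leaving out each array. A crossed block was added after the values were seen. The code was tested on simulated data. Plots were made by matplotlib 3.10.9 under Python 3.11.15.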

Additional observations from a re-analysis of the deposited data

How the results depend on the processing

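The count of neuroendocrine cell genes that passed limma's test was 0 with all arrays and 0 in every other setting but one, with a range of 0 to 1 when 1 array was left out, where the 1 is *Grp* without WT replicate 1. The lowest adjusted p among the 8 genes was 0.529 with all arrays, 0.306 with cyclic loess and 0.430 with arrays centred on their medians. The median difference of the 8 genes was −0.042 and moved to −0.23 without the dimmest 40 percent of genes, which leaves only *Grp* and *Ddc*. Signs turned for *Chgb* (0.051), *Scg3* (0.12) and *Syp* (0.0060) with cyclic loess. When 1 array was left out, the difference ran from −0.020 to 0.22 for *Chga*, from −0.20 to 0.077 for *Chgb*, from −0.038 to 0.18 for *Scg2*, from −0.13 to 0.087 for *Scg3* and from −0.42 to 0.11 for *Ddc*. With the replicate number as a block, 0 of the 8 genes passed (lowest adjusted p = 0.673) and 602 of all genes against 156 without the block, among them *Uchl1*, *Bex2* and *Fabp7* (adjusted p = 0.00902, 0.0418 and 0.0150). Same-numbered arrays tended to deviate in opposite directions (correlation −0.238 over all genes). The labels state no pairing, and with 2 arrays per group this value cannot settle whether the numbers pair the samples. The crossed pairing, chosen after seeing the data, called 0 of the 8 and 512 of all genes. Among these were *Uchl1*, *Bex2* and *Fabp7* again (adjusted p = 0.0247, 0.0432 and 0.0401 from limma). Over all genes the count was 294 with centred arrays, 350 with cyclic loess, 301 without the dimmest 40 percent, 0 without eBayes (1660 genes at an unadjusted p under 0.05), 457 at a threshold of 0.10, 52 with treat, 1638 and 6292 without WT replicate 1 and 2, and 1 and 0 without KO replicate 1 and 2 (1057 and 968 at an unadjusted p under 0.05). No signal over background is given for the arrays, which limits what the 3 dim granin probe sets can show.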

Other observations

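The genes whose values over the 4 arrays lay closest to those of *Grp*, by the Euclidean distance of log2 values minus each gene's own mean, were *1700007K13Rik* (distance 0.0119), *Cyba*, a subunit of the phagocyte NADPH oxidase (0.0160), *Fbxo6*, an adaptor of a ubiquitin ligase (0.0243), *Lmcd1* (0.0471) and *Apbb1ip* (0.0476). *Cyba* read 11.3 and 11.0 in the KO arrays and 11.2 and 11.7 in the WT arrays, so that like *Grp* it was highest in WT replicate 2 and lowest in KO replicate 2. Their differences ran from −0.34 for *Apbb1ip* to −0.29 for *1700007K13Rik*, and limma called none of the 5 (adjusted p from 0.498 to 0.541). The genes closest to the median of the 8 neuroendocrine cell genes were *Zfp607b*, *Btrc*, *Cnot2*, *Inpp5e* and *Slc12a1*, at distances from 0.0303 to 0.0313 and with differences from 0.029 to 0.046. A profile over 4 arrays has many near neighbours among all genes on the array, and nothing follows from such a likeness.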
